A study of Mus musculus with 8 samples.

Results

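The integrin subunit genes and the laminin chain genes were read in the mouse mammary adenocarcinoma line MCa-P1362. Members were taken by gene symbol, as every Itga or Itgb gene except those for integrin-binding and integrin-like proteins, and every Lama, Lamb or Lamc gene. This gave 38 of the 24421 genes in the files, of which 27 are integrin subunits and 11 are laminin chains. RNA of sorted cells had been sequenced in 8 libraries, 2 in each of 4 groups: monoculture EpCAM+, monoculture EpCAM-, coculture EpCAM+ and coculture EpCAM-. EpCAM is an adhesion protein of epithelial cells, and all groups came from the same line, which began as a spontaneous tumour of a Balb/c female and carries no stated transgene or treatment. All cells were kept in high-glucose DMEM with 10% serum. The protocol says that sorted cells were either frozen directly or grown and passaged before freezing, without saying which of these the labels' words monoculture and coculture stand for. No label tells whether libraries that share a group were separate cultures. The p-values then rest on the spread among these libraries alone, and that spread may be technical.

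Integrins are receptors made of an alpha and a beta subunit that tie the cell to the extracellular matrix and connect it to the actin or keratin cytoskeleton. The alpha subunit largely sets the ligand: some alpha subunits bind laminins, others bind collagens, and others bind fibronectin or vitronectin through the RGD motif. Laminins are cross-shaped trimers of an alpha, a beta and a gamma chain and form the sheet that basement membranes are built on. In the mammary gland, the laminin-binding integrins hold epithelial cells to that sheet, while stromal cells mostly use receptors for fibronectin and collagen.

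The values are FPKM, fragments scaled by transcript length and library depth, so levels of different genes can be set side by side. Comparisons between libraries also depend on how the libraries are scaled to each other, which is not given in the sources used here. FPKM summed to between 387489 and 414612 per library. Epcam followed the sort in every library and lay between 129 and 202 FPKM in EpCAM+ libraries and between 0.225 and 0.359 FPKM in EpCAM- libraries. Of 15 mesenchymal markers, none was at 0 in EpCAM+ cells. Their median level was 0.127% and 0.139% of that in EpCAM- cells in the monoculture EpCAM+ libraries, but 1.74% and 1.71% in the coculture EpCAM+ libraries. The 15 epithelial markers stood at a median of between 0.172% and 0.269% of the EpCAM+ level in the EpCAM- libraries. A gene was tested where it reached 1 FPKM in at least 2 libraries, which 26 of the 38 members did, and was called where limma's adjusted p was below 0.05 and the change was at least 2-fold. Fold changes are of FPKM + 1 on the log2 scale and so understate the change of low genes.

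Most tested subunits differed in level between the fractions. In monoculture, 13 of the 26 tested members were higher in EpCAM+ cells and 10 were lower, against 15.5% and 12.6% of all 12012 tested genes (28.1% in both directions). In coculture, 12 members were higher and 11 lower, against 16.5% and 10.1% of all genes (26.5% in both directions). Scaling by the median of ratios changed these shares of all genes to 12.0% higher and 15.2% lower in monoculture, and to 12.5% and 12.4% in coculture. The members' counts became 12 higher and 10 lower in monoculture, and 11 and 12 in coculture. That scaling lowered the median log2 fold change of all genes by 0.22 in monoculture and by 0.25 in coculture, so the changes of members near the 2-fold limit depend on it. The median log2 fold change of the members was 0.36 in monoculture and 0.53 in coculture, beside 0.23 and 0.26 over all tested genes. Altogether 12 members were higher in EpCAM+ cells in both cultures, 9 were lower in both, and 0 were called in opposite directions by the limma test, in which all 26 members had an unadjusted p below 0.05 in each culture. A pseudocount of 0.1 put Lama1 past the limit in opposite directions, at -1.71 in monoculture and 1.67 in coculture. With no minimum change, all 26 passed in both cultures, as did 87.9% and 87.2% of all tested genes in monoculture and coculture. Libraries of both fractions reached 1 FPKM for 13 of the 26. A member's passing the filter was not independent of its difference: 7 members reached 1 FPKM in EpCAM+ libraries only and 6 in EpCAM- libraries only. The 7 are Itgb4, Itgb6, Itgb8, Lama3, Lama4, Lama5 and Lamb3, and the 6 are Itga1, Itga9, Itga11, Itgb7, Lama1 and Lama2. For these members, p-values and lack of overlap are no separate support for a difference between the fractions. Because the libraries are bulk RNA, fewer cells of a type and less RNA per cell cannot be told apart in any of these values.

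**Figure D1:**
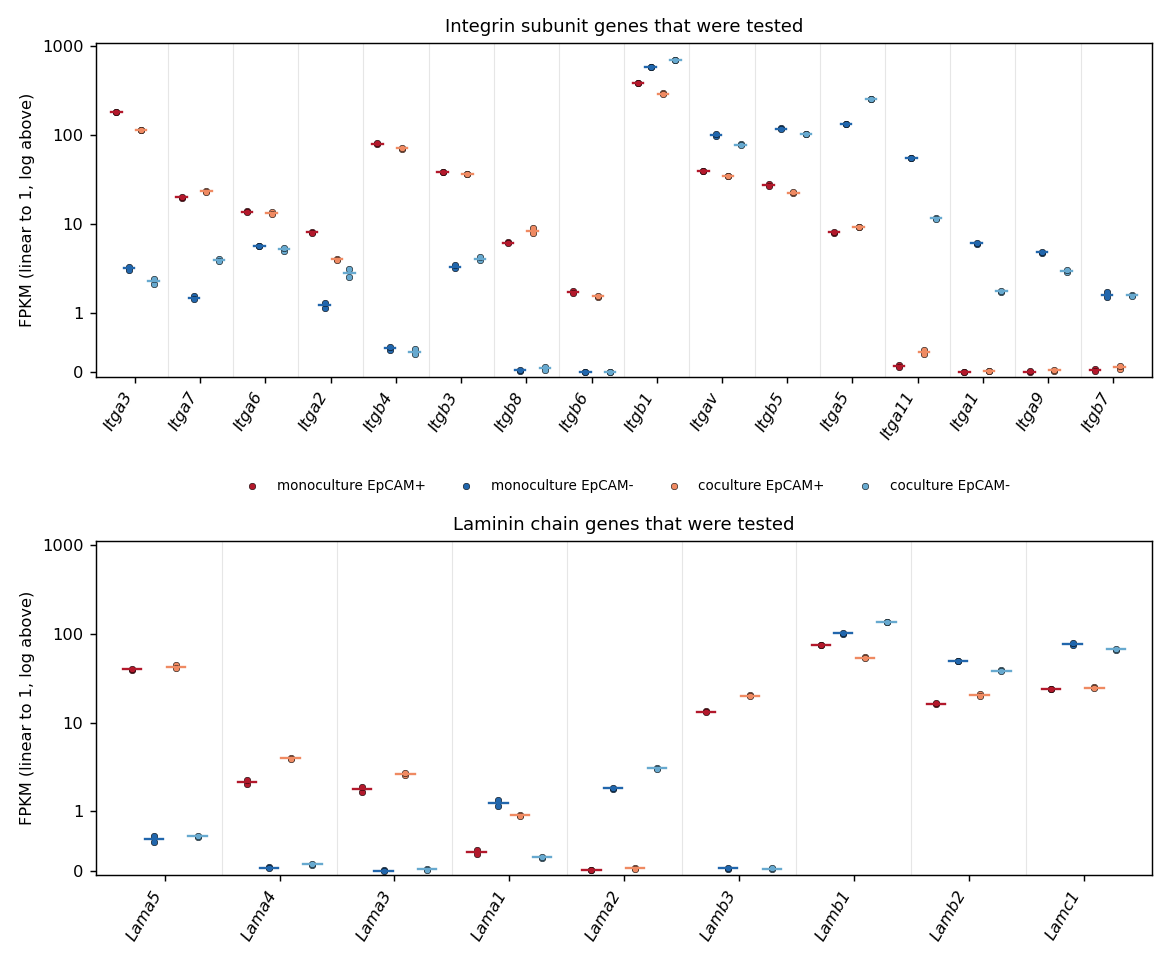
FPKM of the 16 tested integrin genes (top) and 9 tested laminin genes (bottom) in each library, on an axis that is linear to 1 and logarithmic above. Points are libraries and bars are means of 2; Itga3, Itgb4, Lama5 and Lamb3 are high only in the EpCAM+ groups, and Itga5 and Itga11 are highest in the EpCAM- groups.

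The dominant alpha subunit differed between the fractions. Itga3, the alpha subunit of the laminin receptor α3β1, made up 66.7% and 67% of the summed integrin alpha FPKM in the monoculture EpCAM+ libraries and 57.2% and 57.5% in the coculture EpCAM+ libraries. Itga5, the alpha subunit of the fibronectin receptor α5β1, led in EpCAM- cells, with 43.0% and 42.3% in the monoculture libraries and 69.9% and 70.1% in the coculture libraries. Among laminin alpha chains, Lama5 held between 84.4% and 90.6% of the summed FPKM in EpCAM+ libraries, while Lama2 led in EpCAM- libraries with between 49.3% and 77.6%. RefSeq promoters (build GRCm38.p6, 250 bases before the start) are printed for Itga3, Lama5, Itga5 and Itga11, a collagen receptor subunit. Among members called in both cultures for which a RefSeq promoter was matched, these had the most positive and the most negative fold changes in monoculture. The starts are those of RefSeq, and the windows of Itga3 and Itga11 overlap the first bases of the gene as GENCODE places it. Lama2 is not shown because its log2 fold change in monoculture (-1.48) was not among the most negative. Capitals mark the E-box CAGGTG or its reverse complement CACCTG, to which SNAIL and ZEB proteins can bind, and the GC box GGGCGG or CCGCCC.
Itga3 (higher in EpCAM+, chr11:95076715-95076964, minus strand): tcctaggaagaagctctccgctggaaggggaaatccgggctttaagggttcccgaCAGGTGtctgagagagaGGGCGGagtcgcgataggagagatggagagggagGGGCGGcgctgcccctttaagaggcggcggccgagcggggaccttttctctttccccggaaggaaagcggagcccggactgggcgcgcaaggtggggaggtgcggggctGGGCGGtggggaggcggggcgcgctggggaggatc
Lama5 (higher in EpCAM+, chr2:180225860-180226109, minus strand): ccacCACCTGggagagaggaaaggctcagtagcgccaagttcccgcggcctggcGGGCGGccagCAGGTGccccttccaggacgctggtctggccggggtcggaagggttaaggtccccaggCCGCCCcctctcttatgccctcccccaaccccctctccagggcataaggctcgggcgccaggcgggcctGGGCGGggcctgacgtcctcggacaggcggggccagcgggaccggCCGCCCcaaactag
Itga11 (lower in EpCAM+, chr9:62677605-62677854, plus strand): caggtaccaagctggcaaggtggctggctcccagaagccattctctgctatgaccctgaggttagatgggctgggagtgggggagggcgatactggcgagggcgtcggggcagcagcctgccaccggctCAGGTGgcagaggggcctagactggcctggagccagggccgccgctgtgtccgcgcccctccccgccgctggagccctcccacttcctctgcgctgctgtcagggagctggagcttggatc
Itga5 (lower in EpCAM+, chr15:103366792-103367041, minus strand): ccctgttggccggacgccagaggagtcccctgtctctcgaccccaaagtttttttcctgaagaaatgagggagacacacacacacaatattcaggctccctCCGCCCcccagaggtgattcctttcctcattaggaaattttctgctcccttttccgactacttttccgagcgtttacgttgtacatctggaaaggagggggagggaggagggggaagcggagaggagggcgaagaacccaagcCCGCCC
The Itga3 promoter held 1 E-box and 3 GC boxes, and that of Lama5 held 2 E-boxes and 4 GC boxes. On the other side, Itga11 had 1 E-box and 0 GC boxes, and Itga5 had 0 E-boxes and 2 GC boxes. Their GC content was 67.6% for Itga3, 72.4% for Lama5, 68.4% for Itga11 and 55.6% for Itga5.

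RefSeq promoters were matched for 24 of the 38 members by symbol, and 13 of these belonged to members called in both cultures. The E-box was in 3 of the 5 promoters of genes higher in EpCAM+ cells and in 3 of the 8 promoters of genes lower there, beside 17.1% of all 27025 promoters of the same length. The GC box was in 2 of the 5 and 2 of the 8, beside 33% of all promoters. Searches for TGANTCA (AP-1), GGAATG (TEAD) and AACCGGTT (grainyhead) on both strands found 0 of the 13, beside 6.85%, 12.6% and 0.126% of all promoters. These are matches of letters, described for few promoters and without a test.

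Of the laminin receptor subunits, Itga3, Itgb4, Itga6 and Itga7 were higher in EpCAM+ cells. Itgb1, a partner of the alpha subunits among them, was lower there, by under 2-fold in monoculture. Itga3 had 181 and 183 FPKM in monoculture EpCAM+ cells, against 3.27 and 3.07 FPKM in monoculture EpCAM- cells. It had 115 and 115 FPKM in coculture EpCAM+ cells, against 2.14 and 2.38 FPKM in coculture EpCAM- cells. Every EpCAM+ library was far above every EpCAM- library, with log2 fold changes of 5.45 in monoculture (SE 0.0413, adjusted p = 6.47e-12) and 5.15 in coculture (SE 0.0413, adjusted p = 1.03e-11). The gene lies at 95044474 to 95076801 on chromosome 11 (mm10, minus strand). Itga3 in EpCAM- cells stood at between 1.69% and 2.07% of its EpCAM+ level, above the epithelial markers' median there. In the coculture EpCAM- libraries it was within the range of those markers, the highest of which stood at 3.76% and 2.36%. In monoculture it was above the highest marker in EpCAM- replicate 1 (1.28%) but not in replicate 2 (2.70%).

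Itgb4, which pairs with α6 alone and anchors keratin filaments in hemidesmosomes, was close to absent from EpCAM- cells. It had 80.1 and 80.9 FPKM in monoculture EpCAM+ cells, against 0.379 and 0.432 FPKM in monoculture EpCAM- cells. In coculture it had 70.9 and 71.5 FPKM in EpCAM+ cells, against 0.387 and 0.310 FPKM in EpCAM- cells. The groups did not overlap, and its log2 fold changes were the highest of the tested members in both cultures, at 5.86 (SE 0.0416, adjusted p = 4.55e-12) and 5.74 (SE 0.0416, adjusted p = 7.01e-12). Itgb4 reached 1 FPKM in EpCAM+ libraries only, so its passing the filter was not independent of this difference. It lies on chromosome 11 too, at 115974709 to 116008412 on the plus strand.

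Itga6, its partner, was shared between the fractions. It had 13.9 and 13.5 FPKM in monoculture EpCAM+ cells, against 5.67 and 5.64 FPKM in monoculture EpCAM- cells, and 13.7 and 12.9 FPKM in coculture EpCAM+ cells, against 5.03 and 5.37 FPKM in coculture EpCAM- cells. The log2 fold changes were 1.14 (adjusted p = 5.86e-08) and 1.20 (adjusted p = 4.87e-08). Both lost the 2-fold call when FPKM were scaled by the median of ratios (0.93 in monoculture, 0.96 in coculture) or by quantiles (0.96 and 0.89). Itgb4 mRNA was between 5.18 and 5.99 times that of Itga6 in the EpCAM+ libraries, so Itga6 was the lower subunit of the pair there. In EpCAM- libraries Itgb4 was between 0.0578 and 0.0766 times Itga6.

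Itga7, the alpha subunit of the laminin receptor α7β1 known best from skeletal muscle, was also an EpCAM+ gene. It had 19.7 and 20.3 FPKM in monoculture EpCAM+ cells, against 1.53 and 1.44 FPKM in monoculture EpCAM- cells (log2 fold change 3.08, adjusted p = 1.24e-10). In coculture it had 23.7 and 23.1 FPKM in EpCAM+ cells, against 4.07 and 3.87 FPKM in EpCAM- cells (2.29, adjusted p = 6.86e-10). An exon of Itga7 overlaps Mettl7b on the other strand, and whether counting used strand is not given in the sources used here, so reads of the pair may be mixed. Mettl7b was itself listed between 1.86 and 2.83 FPKM in EpCAM+ libraries and between 0 and 0.0242 FPKM in EpCAM- libraries, well below Itga7.

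The RGD-binding beta subunits divided. Itgb3, which with αv binds vitronectin and osteopontin, had 38.7 and 38.8 FPKM in monoculture EpCAM+ cells, against 3.23 and 3.43 FPKM in monoculture EpCAM- cells. Its coculture values were 36.5 and 37.0 FPKM in EpCAM+ cells, against 3.94 and 4.23 FPKM in EpCAM- cells. No libraries overlapped, and the log2 fold changes were 3.20 (SE 0.0405, adjusted p = 8.03e-11) and 2.89 (SE 0.0405, adjusted p = 1.45e-10). Itgb8, which with αv binds latent TGF-beta, had 6.23 and 6.17 FPKM in monoculture EpCAM+ cells, against 0.0229 and 0.0390 FPKM in monoculture EpCAM- cells. In coculture EpCAM+ cells Itgb8 had 7.94 and 8.95 FPKM, against 0.0840 and 0.0424 FPKM in coculture EpCAM- cells, and it was called higher in both cultures (2.80, adjusted p = 1.67e-09, and 3.15, adjusted p = 9.05e-10). Itgb6, the epithelial partner of αv, had 1.76 and 1.67 FPKM in monoculture EpCAM+ cells and 1.52 and 1.54 FPKM in coculture EpCAM+ cells, and it was listed at 0 in all EpCAM- libraries.

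Itgb5, the vitronectin-binding partner of αv, ran the other way. It had 28.1 and 26.6 FPKM in monoculture EpCAM+ cells, against 119.9 and 118 FPKM in monoculture EpCAM- cells, and 22.1 and 22.7 FPKM in coculture EpCAM+ cells, against 103 and 103 FPKM in coculture EpCAM- cells. The log2 fold changes were -2.08 (SE 0.0297, adjusted p = 1.48e-10) and -2.15 (SE 0.0297, adjusted p = 1.35e-10). The ratio of Itgb5 to Itgb3 FPKM was 0.726 and 0.686 in monoculture EpCAM+ cells, against 37.1 and 34.3 in monoculture EpCAM- cells, and 0.606 and 0.614 in coculture EpCAM+ cells, against 26.1 and 24.3 in coculture EpCAM- cells. The common partner Itgav differed less, with 39.3 and 39.3 FPKM in monoculture EpCAM+ cells, against 98.3 and 103 FPKM in monoculture EpCAM- cells. In coculture Itgav had 34.6 and 34.3 FPKM in EpCAM+ cells, against 78.9 and 78.0 FPKM in EpCAM- cells. It was called lower in EpCAM+ cells in both cultures (-1.34, adjusted p = 9.78e-10, and -1.16, adjusted p = 2.44e-09).

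In EpCAM- cells Itga5 had the most RNA of the integrin alpha subunits. It had 8.02 and 8.24 FPKM in monoculture EpCAM+ cells, against 133 and 134 FPKM in monoculture EpCAM- cells. In coculture it had 9.22 and 9.39 FPKM in EpCAM+ cells, against 255 and 258 FPKM in EpCAM- cells. The log2 fold changes were -3.88 (SE 0.0240, adjusted p = 2.62e-12) and -4.64 (SE 0.0240, adjusted p = 2.23e-12). Its EpCAM+ level was 6.00% and 6.17% of the EpCAM- level in monoculture and 3.59% and 3.66% in coculture, above the mesenchymal markers' medians in the same libraries.

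Itga11, Itga1 and Itga9 were nearly confined to EpCAM- cells among these 8 libraries. Itga11, the fibroblast receptor subunit for fibrillar collagen, had 0.125 and 0.0886 FPKM in monoculture EpCAM+ cells, against 54.8 and 56.0 FPKM in monoculture EpCAM- cells, that is, -5.67 on the log2 scale (SE 0.0453, adjusted p = 8.42e-12). In coculture Itga11 had 0.370 and 0.309 FPKM in EpCAM+ cells, against 11.7 and 11.6 FPKM in EpCAM- cells (-3.24, SE 0.0453, adjusted p = 1.45e-10). Those coculture EpCAM+ values were 3.18% and 2.66% of the coculture EpCAM- level, beside the markers' 1.74% and 1.71%. Subtracting that share of EpCAM- signal gave a fold change of -3.47. Itga1, a collagen receptor subunit, was listed at 0 in both monoculture EpCAM+ libraries and had 5.92 and 6.18 FPKM in monoculture EpCAM- cells. In coculture it had 0.0283 and 0.0192 FPKM in EpCAM+ cells, against 1.74 and 1.76 FPKM in EpCAM- cells (-1.43, adjusted p = 2.25e-08). Itga9, which binds tenascin C, averaged 0.0304 ± 0.0115 FPKM in coculture EpCAM+ cells and 2.98 ± 0.125 FPKM in coculture EpCAM- cells (SD, n = 2 each), and was called lower in EpCAM+ cells in both cultures.

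Itga2, another collagen receptor subunit and one typical of epithelium, differed between the fractions mainly in monoculture. It had 8.24 and 7.94 FPKM in monoculture EpCAM+ cells, against 1.13 and 1.31 FPKM in monoculture EpCAM- cells, and 4.09 and 3.97 FPKM in coculture EpCAM+ cells, against 2.52 and 3.10 FPKM in coculture EpCAM- cells. The groups did not overlap in either culture. The log2 fold change was 2.03 in monoculture (SE 0.0776, adjusted p = 4.80e-08) and 0.41 in coculture (SE 0.0776, adjusted p = 0.00132), below the 2-fold limit.

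Itgb1, the partner of most alpha subunits named here, was the most abundant member in every library. It had 392 and 389 FPKM in monoculture EpCAM+ cells, against 590.2 and 585 FPKM in monoculture EpCAM- cells, and 295 and 293 FPKM in coculture EpCAM+ cells, against 694 and 705 FPKM in coculture EpCAM- cells. It was lower in EpCAM+ cells in both cultures but by 2-fold only in coculture, with log2 fold changes of -0.59 (SE 0.0167, adjusted p = 7.90e-09) and -1.25 (SE 0.0167, adjusted p = 1.15e-10). Itgb1 made up between 67.4% and 86.5% of the summed integrin beta FPKM of a library.

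**Figure D2:**
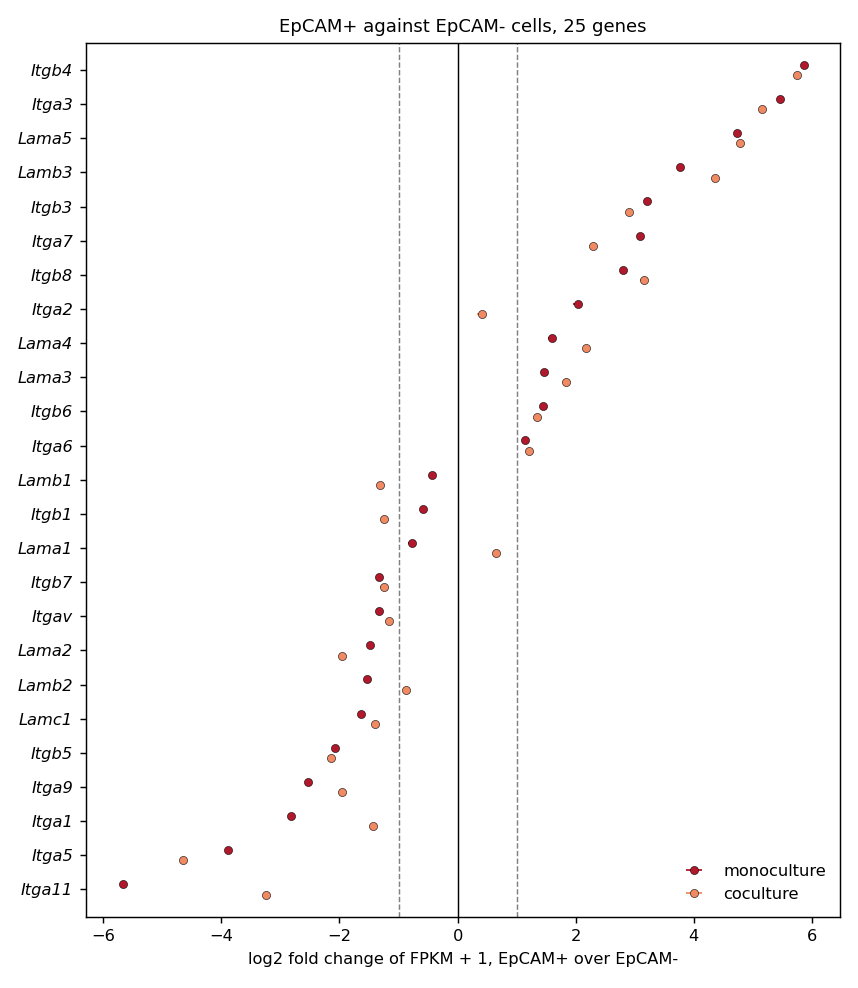
Log2 fold change of FPKM + 1, EpCAM+ over EpCAM-, for 25 tested members in monoculture (dark) and coculture (light), with standard errors mostly smaller than the points and dashed lines at 2-fold. The order runs from Itgb4 (5.86 in monoculture) to Itga11 (-5.67), and Lama1 is the gene whose signs differ (-0.78 in monoculture, 0.66 in coculture).

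The laminin chains divided too, with most alpha chain RNA in EpCAM+ cells and more β1 and γ1 chain RNA in EpCAM- cells. Lama5, the alpha chain of laminins 511 and 521, had 39.2 and 40.4 FPKM in monoculture EpCAM+ cells, against 0.585 and 0.492 FPKM in monoculture EpCAM- cells. Coculture libraries held 43.9 and 40.9 FPKM in EpCAM+ cells, against 0.562 and 0.592 FPKM in EpCAM- cells. The log2 fold changes were 4.73 (SE 0.0510, adjusted p = 3.62e-11) and 4.78 (SE 0.0510, adjusted p = 4.05e-11), with no overlap between the groups. Summed laminin alpha FPKM was between 43.3 and 51.5 in EpCAM+ libraries and between 3.61 and 3.97 in EpCAM- libraries, while the summed beta chain FPKM of EpCAM- libraries was above that of EpCAM+ libraries.

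Lamb3 and Lama3 encode chains of the hemidesmosomal laminin, and both were higher in EpCAM+ cells. Lamb3 had 13.4 and 13.0 FPKM in monoculture EpCAM+ cells, against 0.0353 and 0.0520 FPKM in monoculture EpCAM- cells (log2 fold change 3.77, adjusted p = 5.42e-11). In coculture Lamb3 had 20.3 and 19.7 FPKM in EpCAM+ cells, against 0.0230 and 0.0381 FPKM in EpCAM- cells (4.35, adjusted p = 3.30e-11). Lama3 was the scarce chain, with 1.67 and 1.88 FPKM in monoculture EpCAM+ cells, against 0.00418 and 0 FPKM in monoculture EpCAM- cells, and 2.6 and 2.69 FPKM in coculture EpCAM+ cells, against 0.0207 and 0.0187 FPKM in coculture EpCAM- cells. Lamb3 FPKM was between 6.95 and 7.99 times that of Lama3 in the EpCAM+ libraries.

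The chains of the broadly used laminins were in both fractions. Lamb1 had 74.9 and 74.1 FPKM in monoculture EpCAM+ cells, against 99.0 and 103 FPKM in monoculture EpCAM- cells, and 54.0 and 52.7 FPKM in coculture EpCAM+ cells, against 134 and 135 FPKM in coculture EpCAM- cells. Its log2 fold changes were -0.43 (adjusted p = 6.58e-07), below the 2-fold limit, and -1.32 (adjusted p = 7.99e-10). Lamc1 had 23.6 and 23.9 FPKM in monoculture EpCAM+ cells, against 74.0 and 77.7 FPKM in monoculture EpCAM- cells, and 24.8 and 24.3 FPKM in coculture EpCAM+ cells, against 65.8 and 67.4 FPKM in coculture EpCAM- cells. It was called lower in EpCAM+ cells in both cultures (-1.63, adjusted p = 6.08e-10, and -1.40, adjusted p = 1.62e-09). Lamb2, which replaces β1 in laminin 521, averaged 16.3 ± 0.476 FPKM in monoculture EpCAM+ cells and 49.4 ± 0.258 FPKM in monoculture EpCAM- cells (log2 fold change -1.54, adjusted p = 1.13e-09; SD, n = 2 each). In coculture Lamb2 averaged 20.5 ± 0.510 FPKM in EpCAM+ cells and 38.4 ± 0.775 FPKM in EpCAM- cells, a log2 fold change of -0.87 that passed the 2-fold limit after scaling by the median of ratios (-1.14) or by quantiles (-1.07).

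Of the minor alpha chains, Lama4 and Lama2 were low but were called in both cultures, in opposite directions. Lama4, found in endothelial and muscle basement membranes, was higher in EpCAM+ cells in both cultures, with 2.04 and 2.28 FPKM in monoculture EpCAM+ cells and 4.03 and 3.92 FPKM in coculture EpCAM+ cells, and at most 0.115 FPKM in an EpCAM- library. The 7 endothelial markers summed to between 0.147 and 0.356 FPKM in EpCAM+ libraries and to between 0.813 and 1.27 FPKM in EpCAM- libraries. Most of the coculture EpCAM- sum was Kdr (1.20 FPKM, against 0.122 FPKM in coculture EpCAM+ cells). Cdh5, Vwf and Emcn averaged 0.00745, 0.0147 and 0.0298 FPKM in coculture EpCAM- cells, against 0, 0.00532 and 0 FPKM in coculture EpCAM+ cells. Tek and Pecam1 averaged 0.150 and 0.0339 FPKM in coculture EpCAM+ cells and were at 0 in coculture EpCAM- cells. Cldn5 was at 0 in every group. In monoculture Pecam1 had the other sign (0.00462 FPKM in EpCAM+ cells, 0.0162 FPKM in EpCAM- cells). The endothelial markers' part in the result for Lama4 was not tested. Lama2, the muscle and nerve chain, was lower in EpCAM+ cells in both cultures, with 0.0174 and 0.00340 FPKM in monoculture EpCAM+ cells, against 1.80 and 1.83 FPKM in monoculture EpCAM- cells, and 0.0516 and 0.0250 FPKM in coculture EpCAM+ cells, against 3.08 and 3.01 FPKM in coculture EpCAM- cells.

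Itga2 and Itga1 lie 21 kb apart on the minus strand of chromosome 13, and in monoculture Itga2 was higher and Itga1 lower in EpCAM+ cells.

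Read as receptor pairs, by the FPKM of the lower subunit, the fractions had different main receptors. For α3β1 it was 182 ± 1.44 in monoculture EpCAM+ cells and 3.17 ± 0.136 in monoculture EpCAM- cells, and 115 ± 0.608 in coculture EpCAM+ cells and 2.26 ± 0.173 in coculture EpCAM- cells (SD, n = 2 for every pair and trimer). For α6β4 it was 13.7 ± 0.286 in monoculture EpCAM+ cells, set by Itga6, and 0.406 ± 0.0370 in monoculture EpCAM- cells, set by Itgb4. In coculture it was 13.3 ± 0.540 in EpCAM+ cells and 0.349 ± 0.0540 in EpCAM- cells. The fibronectin receptor α5β1 was the highest pair of EpCAM- cells, at 8.13 ± 0.161 in monoculture EpCAM+ cells and 134 ± 0.816 in monoculture EpCAM- cells, and at 9.30 ± 0.117 in coculture EpCAM+ cells and 257 ± 1.76 in coculture EpCAM- cells. These values are of mRNA and do not measure assembled receptor, since subunits such as Itgb1 and Itgav serve several pairs.

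For αv, the partners β3 and β5 differed between the fractions. For αvβ3 the lower subunit had 38.7 ± 0.0882 FPKM in monoculture EpCAM+ cells and 3.33 ± 0.143 FPKM in monoculture EpCAM- cells, and 34.5 ± 0.192 FPKM in coculture EpCAM+ cells and 4.08 ± 0.201 FPKM in coculture EpCAM- cells. For αvβ5 it had 27.3 ± 1.03 FPKM in monoculture EpCAM+ cells and 101 ± 3.44 FPKM in monoculture EpCAM- cells, and 22.4 ± 0.398 FPKM in coculture EpCAM+ cells and 78.4 ± 0.655 FPKM in coculture EpCAM- cells. Itgav set the αvβ5 value in EpCAM- cells, and it set that of αvβ1 in every group. For αvβ1 the lower subunit had 39.3 ± 0.0355 FPKM in monoculture EpCAM+ cells and 101 ± 3.44 FPKM in monoculture EpCAM- cells. In coculture it had 34.5 ± 0.192 FPKM in EpCAM+ cells and 78.4 ± 0.655 FPKM in EpCAM- cells. Itgav was 1.02 and 1.01 times Itgb3 in the monoculture EpCAM+ libraries, against 30.4 and 30.1 times in the monoculture EpCAM- libraries.

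Among laminin trimers, 511 had the highest lower chain in EpCAM+ cells. Its lower chain had 23.8 ± 0.259 FPKM in monoculture EpCAM+ cells, where Lamc1 set it, and 0.539 ± 0.0662 FPKM in monoculture EpCAM- cells, where Lama5 set it. In coculture it had 24.5 ± 0.381 FPKM in EpCAM+ cells and 0.577 ± 0.0216 FPKM in EpCAM- cells. For laminin 211, the lowest chain Lama2 had 1.82 ± 0.0231 FPKM in monoculture EpCAM- cells and 3.05 ± 0.0505 FPKM in coculture EpCAM- cells, the same as for laminin 221, which shares that chain, and above the other trimers listed in EpCAM- cells.

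**Figure D3:**
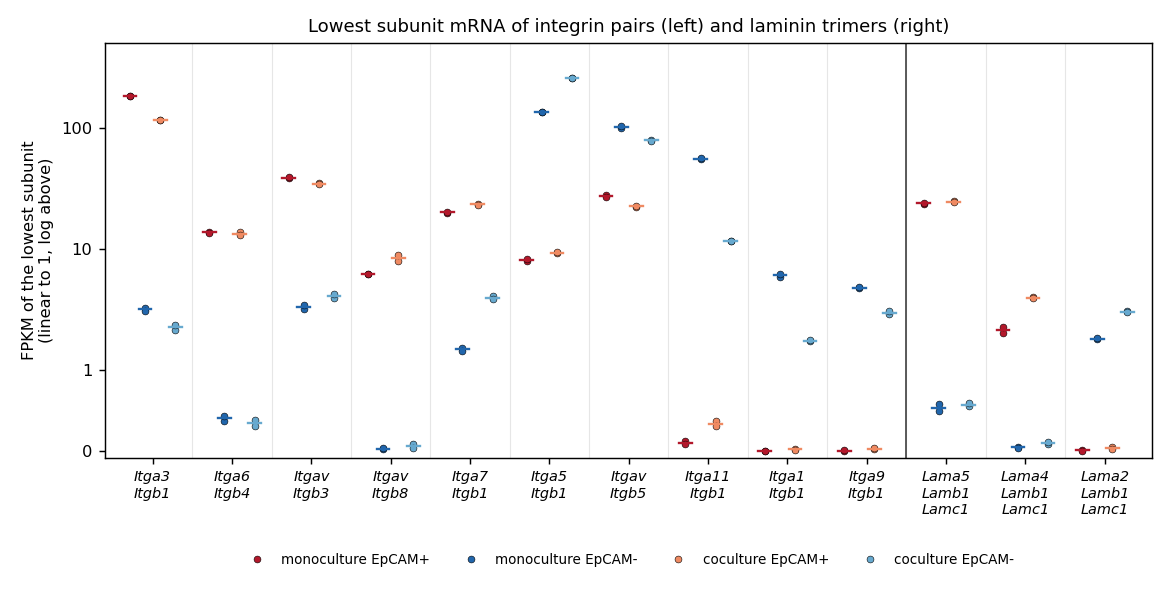
FPKM of the lowest subunit of 10 integrin pairs and 3 laminin trimers in each library, on an axis linear to 1 and logarithmic above; points are libraries and bars are means of 2. The lower subunit of Itga3 with Itgb1 is at 182 FPKM in monoculture EpCAM+ cells against 3.17 FPKM in monoculture EpCAM- cells, and that of Itga5 with Itgb1 at 8.13 FPKM against 134 FPKM.

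Between cultures the subunits of EpCAM+ cells differed by less than 2-fold on the scale of FPKM + 1. By limma, 0 of the 26 tested members were called for monoculture against coculture in EpCAM+ cells, where 1.94% of all tested genes were (0.266% higher and 1.67% lower), although 16 members passed with no minimum change (51.4% of all genes), the same number as had an unadjusted p below 0.05. With a pseudocount of 0.1, Itga11 (-1.09) and Lama1 (-1.32) were called. The median log2 fold change was -0.04 over the members and -0.06 over all genes. Itga3 was higher in monoculture by 0.65 (SE 0.0413, adjusted p = 1.21e-05) and Itga2 by 0.85 (SE 0.0776, adjusted p = 8.11e-05) on the log2 scale. Lama4 (-0.65, adjusted p = 5.03e-05), Lamb3 (-0.56, adjusted p = 3.75e-05) and Lama3 (-0.39, adjusted p = 0.000683) were lower in monoculture. For Itga5 the log2 fold change was -0.17 (adjusted p = 0.000678), and it turned to 0.61 (adjusted p = 3.31e-06) once the share of the other fraction, which is larger in coculture, was subtracted.

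In EpCAM- cells Itga11 and Itga1, both collagen receptor subunits, were the members called between the cultures. A further collagen receptor subunit, Itga2, had the opposite sign there, at -0.78 for monoculture against coculture, and was not called. For monoculture against coculture there, 2 of the 26 tested members were called higher and 0 lower (4.52% of all genes were called, with 2.56% higher and 1.96% lower). With no minimum change 17 passed, as did 62.7% of all genes. Scaling by quantiles gave 2 higher and 2 lower. The median log2 fold change was 0.01 over the members and 0.00 over all genes. Itga11 was higher in monoculture EpCAM- cells, with the values given above, by 4.76-fold in FPKM and by 2.16 on the log2 scale of FPKM + 1 (SE 0.0453, adjusted p = 1.77e-08). Itga1 was higher by 3.45-fold in FPKM and by 1.36 on the log2 scale of FPKM + 1 (SE 0.0472, adjusted p = 2.02e-07). The low gene Lama1 differed by 5.6-fold in FPKM, but by 0.88 on the log2 scale of FPKM + 1, and was called with pseudocounts of 0.1 (2.06) and 0.5 (1.28).

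Itga5 and Itga7 went the other way in EpCAM- cells. Itga5 was lower in monoculture EpCAM- cells, at -0.94 on the log2 scale (SE 0.0240, adjusted p = 4.62e-08), just under the 2-fold limit. The value for Itga7 was -1.0 (SE 0.0425, adjusted p = 5.96e-07), short of the limit by less than its error, and passed it under pseudocounts of 0.1 (-1.36) and 0.5 (-1.17). It also passed without monoculture EpCAM- replicate 1 and without coculture EpCAM- replicate 2 (-1.03 in each case). It passed as well when libraries were scaled by quantiles (-1.05), by the median of ratios (-1.01) or to 1 shared total (-1.02), and after share subtraction, and Itga5 passed with quantiles (just past the limit). The FPKM ratio of Itga11 to Itga5 was 0.412 and 0.417 in monoculture EpCAM- cells, against 0.0459 and 0.0448 in coculture EpCAM- cells. Itga11 and Itga5 thus had opposite signs within the EpCAM- fraction.

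The interaction asked whether the difference between cultures was itself different in EpCAM+ and EpCAM- cells. It was called for 4 of the 26 tested members, 1 higher and 3 lower, against 8.09% of all genes (2.43% higher and 5.66% lower, or 3.03% and 4.21% after quantile scaling). With no minimum change 20 passed, as did 65.2% of all genes, and the median was -0.07 over the members and -0.08 over all genes. Itga11 had an interaction of -2.43 (SE 0.0641, adjusted p = 1.00e-07) and Itga1 one of -1.39 (SE 0.0668, adjusted p = 1.50e-06) on the log2 scale. For both genes the difference between cultures was larger in EpCAM- cells. All 15 mesenchymal markers also had a negative interaction that was called, with a median of -2.52. After subtraction of the other fraction's share, the interaction of Itga11 was -2.30 and that of Itga1 was -1.36.

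Itga2 and Lama1 differed between the cultures in opposite directions in the fractions. Itga2 was higher in monoculture in EpCAM+ cells and lower in monoculture in EpCAM- cells (-0.78, adjusted p = 6.58e-05), giving an interaction of 1.63 (SE 0.110, adjusted p = 8.66e-06). Lama1, the chain of embryonic laminin 111, had 0.343 and 0.283 FPKM in monoculture EpCAM+ cells, against 0.938 and 0.924 FPKM in coculture EpCAM+ cells, and 1.16 and 1.35 FPKM in monoculture EpCAM- cells, against 0.212 and 0.236 FPKM in coculture EpCAM- cells. Monoculture over coculture was -0.56 in EpCAM+ cells (adjusted p = 0.000181) and 0.88 in EpCAM- cells (adjusted p = 7.19e-06), both under 2-fold, and the interaction was -1.44 (SE 0.0834, adjusted p = 3.90e-06). Lama1 passed the filter only through the monoculture EpCAM- libraries, so it was not tested when either of these was left out.

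**Figure D4:**
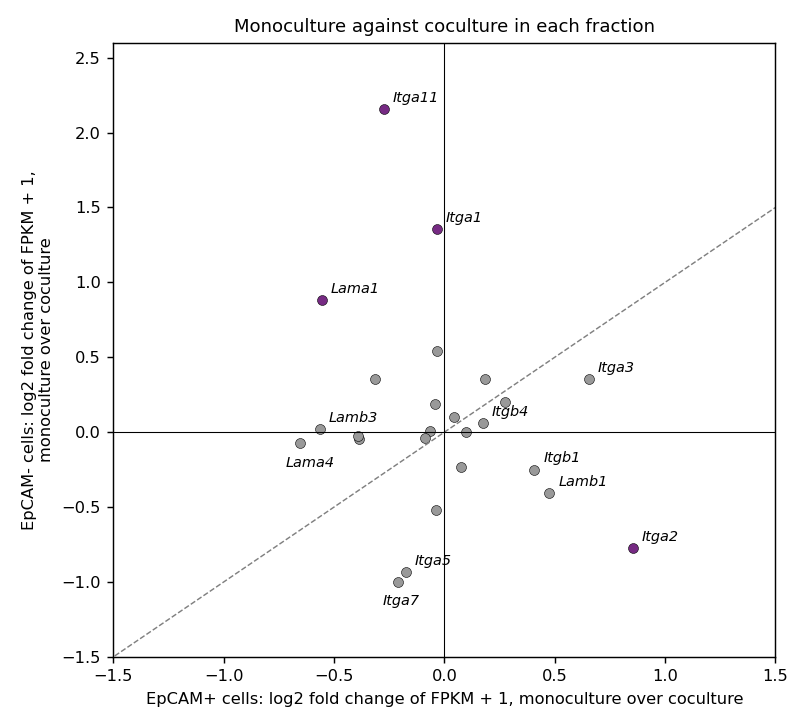
Log2 fold change of FPKM + 1, monoculture over coculture, in EpCAM+ cells (x axis) and EpCAM- cells (y axis) for 25 tested members; the dashed line marks equal changes and purple points are the 4 genes with a called interaction. Itga11 (-0.28 in EpCAM+ cells, 2.16 in EpCAM- cells) and Itga1 lie at the top, and Itga2 (0.85, -0.78) at the lower right.

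The remaining 12 members were not tested. They are the integrin genes Itga2b, Itga4, Itga8, Itga10, Itgad, Itgae, Itgal, Itgam, Itgax, Itgb2 and Itgb2l and the laminin gene Lamc3. Most of the integrins among them belong to leukocytes or platelets. Of the 12, 8 were under 0.1 FPKM in every library, Itgax was listed at 0 in all 8, and the highest value was 0.890 FPKM, of Itga8 in a monoculture EpCAM- library. Itgb2, the beta subunit of leukocyte integrins, reached 0.667 FPKM in a coculture EpCAM- library, while its alpha partners stayed at or below 0.0320 FPKM. The leukocyte marker Ptprc was at 0 in 7 of the 8 libraries and at 0.00552 FPKM in the other, and of the 12 leukocyte markers between 4 and 8 were at 0 in a library. Of the other leukocyte markers, Cd14 averaged 12.8 ± 0.625 FPKM in monoculture EpCAM+ cells and 5.02 ± 0.342 FPKM in monoculture EpCAM- cells, and 18.2 ± 0.0613 FPKM in coculture EpCAM+ cells and 5.34 ± 0.0921 FPKM in coculture EpCAM- cells (SD, n = 2 each), and was called higher in EpCAM+ cells in both cultures. The group means of Cd68 were between 0.554 and 1.29 FPKM, and it was called in neither culture. Itgb7, a leukocyte beta subunit, was nevertheless tested and was lower in EpCAM+ cells in both cultures, with 0.0554 and 0.0126 FPKM in monoculture EpCAM+ cells, against 1.70 and 1.5 FPKM in monoculture EpCAM- cells, and 0.0533 and 0.112 FPKM in coculture EpCAM+ cells, against 1.60 and 1.56 FPKM in coculture EpCAM- cells. Its alpha partners Itga4 and Itgae stayed at or below 0.0955 FPKM in every library.

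Among the cytoplasmic proteins that bind integrin tails or sit in focal adhesions, 13 of 27 tested genes were called in monoculture, 3 higher and 10 lower in EpCAM+ cells, and 14 in coculture, 2 higher and 12 lower. Over all tested genes, 15.5% were higher and 12.6% lower in monoculture, and 16.5% and 10.1% in coculture. The list's median log2 fold change was -0.59 in monoculture and -0.67 in coculture. Fermt1, the kindlin of epithelial cells that helps activate integrins, averaged 33.6 ± 1.06 FPKM in monoculture EpCAM+ cells and 0.0362 ± 0.0149 FPKM in monoculture EpCAM- cells (log2 fold change 5.06, adjusted p = 1.38e-11; SD, n = 2 each). The kinase gene Ptk2b had a log2 fold change of 4.36. Tgfb1i1 (Hic-5), a focal adhesion adaptor, averaged 0.162 ± 0.0125 FPKM in monoculture EpCAM+ cells and 53.5 ± 1.60 FPKM in monoculture EpCAM- cells (-5.55, adjusted p = 2.37e-11), and Lims2 (PINCH-2) had a log2 fold change of -4.69.

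The hemidesmosome partners of Itgb4 were only in part EpCAM+ genes. Of 6 genes, 4 were tested, and Krt14, a keratin of basal cells, was the gene called in monoculture (7.45, adjusted p = 2.18e-11), at 266 ± 4.68 FPKM in monoculture EpCAM+ cells and 0.532 ± 0.0967 FPKM in monoculture EpCAM- cells (SD, n = 2 each). In coculture 1 was higher and 1 lower. Of all tested genes, 28.1% were called in monoculture and 26.5% in coculture. The untested genes, Col17a1 and Krt5, averaged at most 0.0672 FPKM and 0.183 FPKM in any group. The linker plectin (Plec) averaged 33.5 ± 0.872 FPKM in monoculture EpCAM+ cells and 57.4 ± 2.28 FPKM in monoculture EpCAM- cells (-0.76, adjusted p = 9.97e-08). Plec was the gene called lower in coculture. There it averaged 36.9 ± 0.576 FPKM in EpCAM+ cells and 85.5 ± 0.234 FPKM in EpCAM- cells (-1.19, adjusted p = 6.86e-09).

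The other basement membrane components divided between the fractions. Of 12 tested genes, 4 were higher and 7 lower in EpCAM+ cells in monoculture, and 5 and 6 in coculture, with medians of -2.64 and -1.79. The shares of all tested genes were 15.5% higher and 12.6% lower in monoculture, and 16.5% and 10.1% in coculture. Nid1 (nidogen-1), which bridges laminin to collagen IV, averaged 2.36 ± 0.146 FPKM in monoculture EpCAM+ cells and 426 ± 14.9 FPKM in monoculture EpCAM- cells (-6.99, adjusted p = 2.06e-12; SD, n = 2 each). Sparc (-6.72), Hspg2 (perlecan, -6.0) and Nid2 (-5.33) were lower as well. Agrn (agrin), which binds laminin, was higher at 142 ± 0.156 FPKM in monoculture EpCAM+ cells and 4.10 ± 0.110 FPKM in monoculture EpCAM- cells (4.81, adjusted p = 1.48e-12).

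Of 6 laminin receptors that are not integrins, 2 were higher in monoculture and 4 in coculture, with 0 lower in either by limma, beside 28.1% of all tested genes called in monoculture and 26.5% in coculture. The list's median log2 fold change was 0.34 in monoculture and 1.76 in coculture. The syndecan genes Sdc1 (2.71, adjusted p = 6.50e-12) and Sdc4 (1.10, adjusted p = 5.31e-08) were called in monoculture. The coculture count includes Dag1 (dystroglycan), whose coculture EpCAM- libraries differed widely, at 22.7 ± 19.8 FPKM, against 56.8 ± 1.10 FPKM in coculture EpCAM+ cells (SD, n = 2 each). With no minimum change, 1 of the 6 was lower in each culture.

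For the ligands of the RGD and collagen integrins, 3 of 15 tested genes were higher and 8 lower in EpCAM+ cells in each culture, beside 15.5% and 12.6% of all tested genes in monoculture and 16.5% and 10.1% in coculture. Their median log2 fold change was -1.16 in monoculture and -1.45 in coculture. Col1a1 (-8.99), Col3a1 (-8.37) and Fbn1 (-7.52), which encode fibrillar collagens and fibrillin-1, had the most negative values in monoculture, and all of these are also among the 15 mesenchymal markers. Spp1, which encodes osteopontin, averaged 448 ± 6.56 FPKM in monoculture EpCAM+ cells and 13.3 ± 0.422 FPKM in monoculture EpCAM- cells (4.97, adjusted p = 1.07e-12; SD, n = 2 each). In coculture Spp1 averaged 584 ± 1.21 FPKM in EpCAM+ cells and 83.6 ± 0.357 FPKM in EpCAM- cells (2.79, adjusted p = 1.56e-11). Tnc (tenascin C) averaged 469.7 ± 0.488 FPKM in monoculture EpCAM+ cells and 96.8 ± 1.89 FPKM in monoculture EpCAM- cells (2.27, adjusted p = 1.14e-11), while its receptor subunit Itga9 was lower in EpCAM+ cells. Fn1 (fibronectin) averaged 1284 ± 7.41 FPKM in monoculture EpCAM+ cells and 1005 ± 61.3 FPKM in monoculture EpCAM- cells (0.35, adjusted p = 2.58e-05), a change under 2-fold, while its receptor subunit Itga5 was lower in EpCAM+ cells. In coculture Fn1 averaged 814 ± 12.1 FPKM in EpCAM+ cells and 1115 ± 1.20 FPKM in EpCAM- cells (-0.45).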

How the data were processed

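Total RNA of 8 libraries of sorted MCa-P1362 cells was sequenced as 150 bp read pairs, per the labels' protocols. The authors deposited 1 file for each library, with an FPKM value for every gene. FastQC, cutadapt, HISAT2, SAMtools, HTSeq and edgeR and the build mm10 are named, without versions, per the submitters' processing notes. Not given in the sources used here are the annotation, the use of strand and any scaling between libraries. The depth in reads is unknown, so no counting interval is given.

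Groups are those of the labels. Values were transformed to log2(FPKM + 1) for the 12012 genes that reached 1 FPKM in 2 or more libraries and modelled in R 4.3.3 by limma 3.58.1, as means of the 4 groups with 4 residual degrees of freedom and a trended prior. The spread was pooled because each group has 2 libraries. Two-sided p-values were adjusted over all tested genes (Benjamini-Hochberg). A call needs an adjusted p under 0.05 and a change of at least 2-fold. The sorted fractions were compared within monoculture and within coculture, and the cultures were compared within EpCAM+ and within EpCAM-. The interaction is the culture difference in EpCAM+ minus that in EpCAM-. On simulated data for EpCAM+ against EpCAM- in monoculture, 200 of 12012 genes were changed, while 28.1% of genes were called in the data. At simulated log2 changes of 0.5, 1 and 2, an adjusted p under 0.05 in the right direction was reached by 82.5%, 98% and 100%. The 2-fold minimum was not applied there, so these are not rates of calls as defined above.

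Members with a group mean of 5 FPKM or more are described with values, with any member of a listed pair or trimer, and of each other gene list up to 4 called genes with the largest changes in monoculture. Agrn, Plec, Dag1, Col17a1, Krt5, Tnc, Fn1, Cd14, Cd68, Kdr, Tek, Pecam1, Cdh5, Vwf, Emcn and Cldn5 were named after their values were seen. The members and lists were chosen with earlier results of these data known. Some list entries are older or newer symbols of the same gene, so 29 of 30 adhesion protein names and 16 of 18 ligand names are in the files. Gene positions are from GENCODE M21 on GRCm38 (mm10), and promoters from RefSeq on GRCm38.p6. The alternatives were other pseudocounts, filters, scalings and priors, a replicate block, fits of the compared groups only, each library left out, subtraction of the other fraction's share, and other minimum changes. The subtracted share is the median percentage of the other fraction's markers in a library. Tables and figures were made in Python 3.11.15 (SciPy 1.17.1, NumPy 2.4.6, pandas 2.3.3, matplotlib 3.10.9). A member of the gene set is not reported here by name, although the counts include it.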

Additional observations from a re-analysis of the deposited data

Results flagged for a closer look

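The difference between monoculture and coculture itself differed between EpCAM+ and EpCAM- cells for 4 of the 26 tested members, by limma's interaction term at 2-fold or more. The same term was called for 8.09% of all tested genes (2.43% higher and 5.66% lower). The interaction on the log2 scale was 1.63 for Itga2 (adjusted p = 8.66e-06), -1.39 for Itga1 (adjusted p = 1.50e-06), -2.43 for Itga11 (adjusted p = 1.00e-07) and -1.44 for Lama1 (adjusted p = 3.90e-06). Itga1 was listed at 0 in both monoculture EpCAM+ libraries, so its value depends on the pseudocount. With a pseudocount of 0.1, the values were -2.04 for Itga1, -3.33 for Itga11 and -3.38 for Lama1. Lama1 reached at most 1.35 FPKM in any library. Itga1, Itga11 and Lama1 reached 1 FPKM in EpCAM- libraries only, so their passing the filter was not independent of the difference.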

How the results depend on the processing

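Of 2529 values of members under the alternatives, 2503 kept their call and direction, 4 were no longer called, 21 were newly called and 1 turned. The value that turned was Itga5 for monoculture against coculture in EpCAM+ cells, which became 0.61 with the other fraction's share subtracted; the cause was not tested. With that subtraction its interaction was 1.54 and called. The 4 lost calls were those of Itga6. A 4-fold minimum left 14 members called in monoculture (9 higher, 5 lower), 12 in coculture (9 higher, 3 lower), 1 for the cultures in EpCAM- cells and 1 for the interaction. Dropping the minimum gave 16 for the cultures in EpCAM+ cells, 17 in EpCAM- cells and 20 for the interaction. With a pseudocount of 0.1, 2 were called for the cultures in EpCAM+ cells (Itga11 and Lama1, both lower in monoculture) and 5 in EpCAM- cells; a pseudocount of 0.5 or quantile scaling gave 4 in EpCAM- cells. With each library left out, the counts ranged from 23 to 23 in monoculture, 23 to 23 in coculture, 0 to 0 for the cultures in EpCAM+ cells, 2 to 3 in EpCAM- cells and 3 to 4 for the interaction.

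The labels do not say whether replicate numbers pair libraries across groups. Deviations of same-numbered libraries correlated between -0.0726 and 0.0406 across the groups. These correlations cannot show whether such libraries shared a culture or a sort, since the deviations may be technical. A replicate block gave 23, 23, 0, 2 and 4 members called in the same order of comparisons. Depth is unknown, which limits statements on members near 0.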
